A study of Mus musculus with 16 samples.

Results

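Bone morphogenetic protein (BMP) signalling in the sinusoids of the mouse liver was followed through 10 genes, taken by symbol from the 47729 genes in the count tables. They are the ligands Bmp2, Bmp6, Gdf2 (which encodes Bmp9) and Bmp10, the type I receptor Acvrl1 (Alk1), the co-receptors Eng (endoglin) and Hfe2 (hemojuvelin), the inhibitory Smads Smad6 and Smad7, and the target gene Id1. RNA was sequenced from 16 libraries of unchallenged adult liver, 2 for each of 4 cell types and 2 genotype labels, namely endothelial cells (ECs), hepatic stellate cells (HSCs), Kupffer cells (KCs) and hepatocytes (HEPs). Mice labelled KO carried a Zeb2 gene with loxP sites around exon 7, the tamoxifen-inducible Cdh5-CreERT2 driver, which is active in endothelium, and an R26R eGFP reporter background. Mice labelled WT were littermates without Cre. Both received tamoxifen at 2 mg per day for 5 days, so that the drug and its time course were shared by all groups. The study's methods give 8-week-old males and mRNA taken 2 weeks after tamoxifen unless stated otherwise. HSCs were sorted by their UV fluorescence, KCs by F4/80 and ECs by a pan-endothelial antibody from the UV-negative cells, while hepatocytes were separated by centrifugation alone. Libraries are named by the number in their label (EC WT 34 and 38, EC KO 6 and 46, HSC WT 32 and 40, HSC KO 8 and 20, KC WT 31 and 39, KC KO 27 and 43, HEP WT 29 and 33, HEP KO 25 and 41). The 2 libraries of a group are separate samples, but the labels do not say whether libraries of different cell types came from 1 liver.

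BMP ligands are secreted dimers that bind a complex of type I and type II receptors. The type I receptor phosphorylates Smad1, Smad5 and Smad9, which enter the nucleus with Smad4 and switch on targets such as the Id genes and the inhibitory Smads, and Smad6 and Smad7 then dampen the receptors in a feedback loop. In the liver, Bmp2 and Bmp6 are known as endothelial signals that act on hepatocytes through the co-receptor hemojuvelin to induce hepcidin (Hamp), the hormone that restrains iron uptake. Bmp9 and Bmp10 are known as circulating ligands of Alk1 and endoglin, and their supply by stellate cells has been linked to the identity of sinusoidal endothelium and Kupffer cells.

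The upstream sequences of Gdf2 and Bmp10, the pair of ligands that were highest in HSCs, are shown first, followed by those of Eng and Smad6, which were highest in ECs, so that the genes of the ligand side and of the receiving side can be set beside each other. Each run is the 250 bases before the start of the RefSeq transcript on GRCm38.p6, written 5′ to 3′ on the strand of the gene. Of the 10 genes, 5 were searched in the RefSeq table. Smad7 was left out of the search by hand, and no entry was found for Bmp2, Acvrl1, Hfe2 and Id1. Capitals mark the letters AGATAA (the GATA motif) or CAGAC (the Smad box), searched on both strands. No overlap between these motifs occurs in the 4 windows.
Gdf2, chr14:33940789-33941038, forward strand: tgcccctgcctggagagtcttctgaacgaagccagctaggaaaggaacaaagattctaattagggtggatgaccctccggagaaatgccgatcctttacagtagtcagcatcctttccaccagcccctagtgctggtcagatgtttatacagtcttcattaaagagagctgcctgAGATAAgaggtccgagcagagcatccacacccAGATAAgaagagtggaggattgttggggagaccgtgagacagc
Bmp10, chr6:87428744-87428993, forward strand: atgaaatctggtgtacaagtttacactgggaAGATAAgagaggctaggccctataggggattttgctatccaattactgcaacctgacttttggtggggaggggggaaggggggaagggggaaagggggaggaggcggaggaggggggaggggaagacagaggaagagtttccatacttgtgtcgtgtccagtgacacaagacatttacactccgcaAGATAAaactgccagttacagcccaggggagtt
Eng, chr2:32646345-32646594, forward strand: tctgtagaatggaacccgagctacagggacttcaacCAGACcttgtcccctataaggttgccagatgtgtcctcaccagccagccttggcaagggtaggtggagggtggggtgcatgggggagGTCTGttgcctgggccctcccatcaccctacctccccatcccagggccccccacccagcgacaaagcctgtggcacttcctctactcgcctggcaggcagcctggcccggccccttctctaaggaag
Smad6, chr9:64022060-64022309, reverse strand: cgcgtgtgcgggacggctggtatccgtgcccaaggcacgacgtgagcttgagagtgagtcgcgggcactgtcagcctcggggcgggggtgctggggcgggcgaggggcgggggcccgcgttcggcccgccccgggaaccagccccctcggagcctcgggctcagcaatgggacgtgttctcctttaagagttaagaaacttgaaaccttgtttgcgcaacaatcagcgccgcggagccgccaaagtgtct
Gdf2 and Bmp10 each held AGATAA 2 times, at 75 and 43 bases before the start in Gdf2 and at 219 and 33 in Bmp10. Of 32851 promoter windows of this length, 9.99% held AGATAA and 0.938% held it at least 2 times. Eng held CAGAC 2 times, at 214 and 127 bases before the start, and Smad6 had no match to either. CAGAC occurred in 42.2% of the windows and at least 2 times in 11.7%. Bmp6, the fifth gene searched, held CAGAC 1 time, at 119 bases before the start, and neither of the other motifs, and its window is not printed. The GC-rich Smad motif GGCGCC, present in 9.59% of the windows, had no match in these 4 genes. A match describes the letters of the window and is not a binding site.

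Levels are given as CPM, the count of a gene scaled to all reads on genes in its library. Library totals were between 12872706 and 15690506 reads, so that 3 counts, used as the floor for bounds, equal 0.191 to 0.233 CPM (counting error only). Levels printed below this are 1 or 2 counts, or none. The summed level of 10 markers per list stayed between 79.8% and 119% of its own mean in the 4 libraries of that cell type. This describes evenness between those libraries. In libraries of other cell types, EC markers reached at most 6.17% of that mean and HSC markers 1.81%. KC markers reached at most 5.13% and hepatocyte markers 23.6%. Markers of other cell types were also present, at levels that differed between libraries. In EC WT 38 the 10 hepatocyte markers summed to 23308 CPM, above the 17958 CPM of its EC markers. In EC WT 34 the sums were 11317 and 21690 CPM. The largest share was that of the 10 hepatocyte markers in EC WT, at 11.5% and 23.6% of their hepatocyte level, against 2.72% and 1.90% in EC KO. The targeted gene Zeb2 was not lower under the KO label in ECs, with 106 CPM in both WT libraries and 199 and 130 CPM in the KO-labelled ones (log2 difference 0.62, standard error 0.24, edgeR adjusted p = 0.303). Reads were counted over the whole gene, so that a deletion of exon 7 alone need not lower the count. The study itself reports efficient deletion of Zeb2 in endothelium, at the mRNA level and by the fraction of ECs recombined. Zeb2 was between 410 and 538 CPM in HSCs, 235 and 314 in KCs and 0.607 and 3.76 in hepatocytes. Groups are therefore called by their labels.

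**Figure D1:**
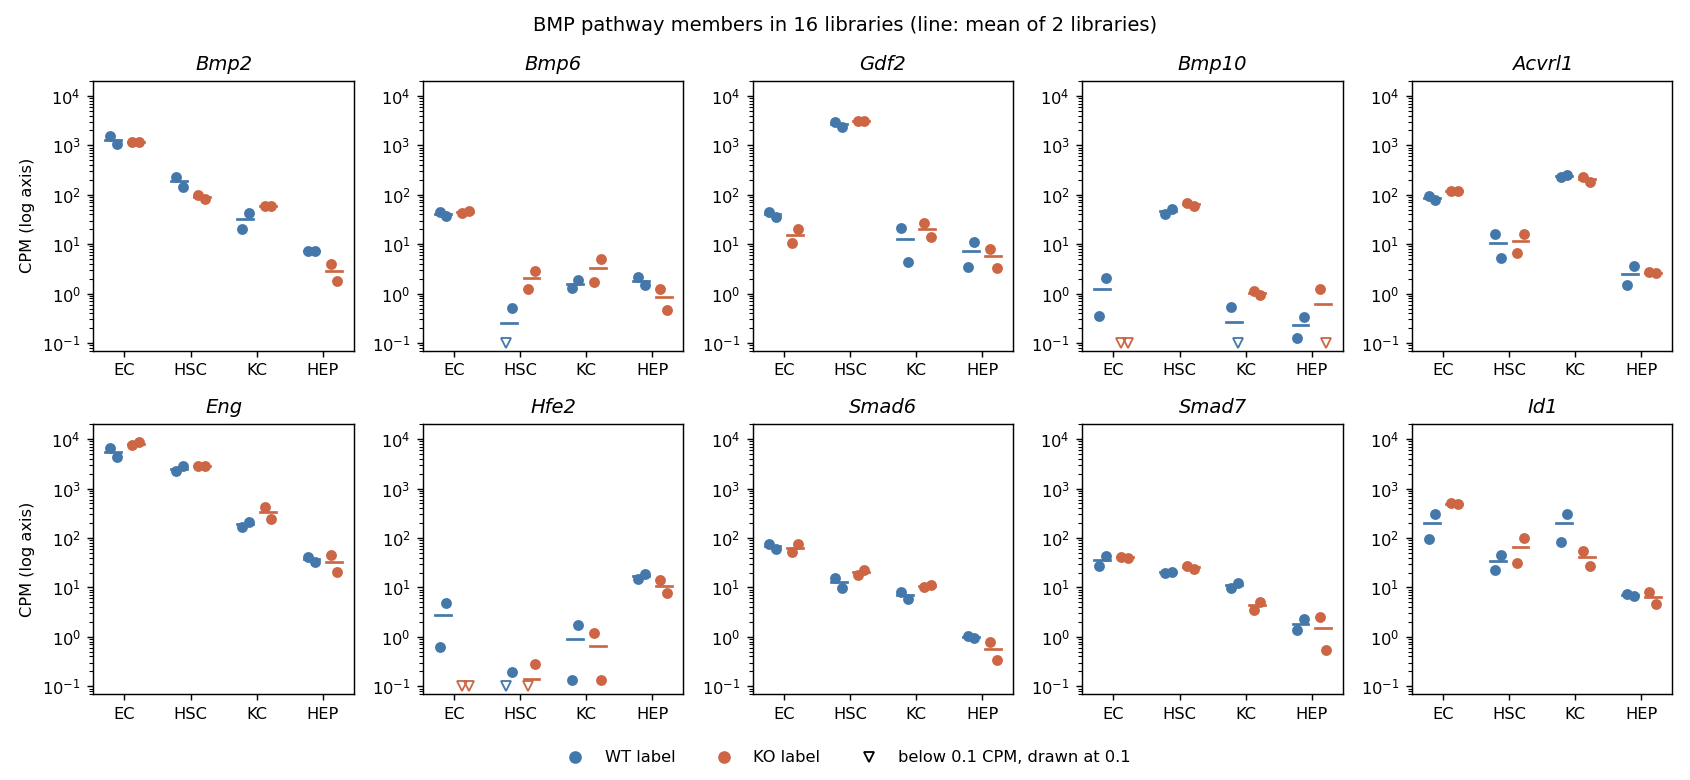
Level of the 10 BMP pathway genes in each of the 16 libraries, in CPM on a log axis, by cell type and genotype label. Points are libraries, lines are means of 2 libraries, and open triangles are libraries below 0.1 CPM. Bmp2, Bmp6, Eng, Smad6 and Smad7 were highest on average in ECs, Gdf2 and Bmp10 in HSCs, Acvrl1 in KCs and Hfe2 in hepatocytes.

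The 10 genes were divided over the 4 cell types. On the mean of 4 libraries, 6 were highest in ECs (Bmp2, Bmp6, Eng, Smad6, Smad7 and Id1), 2 in HSCs (Gdf2 and Bmp10), 1 in KCs (Acvrl1) and 1 in hepatocytes (Hfe2). Cell types were compared in pairs by edgeR's quasi-likelihood test over all 16 libraries, with both labels averaged. The test scaled library totals by TMM factors, between 0.497 and 0.588 in hepatocyte libraries and between 1.01 and 1.47 in the others. The CPM values are not scaled by these factors. Where another cell type exceeded hepatocytes, the log2 difference is therefore smaller than the CPM values alone would give, and these calls depend on the scaling. Among the 10 genes, 8 differed between ECs and HSCs, where 26.0% of all genes tested differed, and 7 between ECs and KCs (32.0% of all genes). ECs and hepatocytes differed in 8 (58.7%), HSCs and KCs in 8 (42.9%), HSCs and hepatocytes in 9 (58.4%), and KCs and hepatocytes in 7 (55.6%). The median difference over all genes, on the log2 scale, was 0.13 for ECs minus KCs, 0.24 for KCs minus hepatocytes, 0.54 for ECs minus hepatocytes and 0.60 for HSCs minus hepatocytes. With RLE size factors in place of TMM it moved by -0.11 for ECs minus KCs and by 0.12 for KCs minus hepatocytes, to 0.02 and 0.36.

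Bmp2 was the main ligand transcript of ECs. It had 1556 and 1069 CPM in EC WT and 1167 and 1142 CPM in EC KO. HSCs had 231 and 145 CPM in WT and 99.1 and 84.0 CPM under the KO label, KCs 20.7 and 42.7 and then 59.5 and 58.3, and hepatocytes 7.20 and 7.43 and then 4.0 and 1.82. The 4 cell types did not overlap, and each step down the order from ECs over HSCs and KCs to hepatocytes passed the test. The difference was 2.99 on the log2 scale between ECs and HSCs (standard error 0.28, edgeR adjusted p = 9.84e-06), 1.55 between HSCs and KCs (standard error 0.27, adjusted p = 0.000618) and 2.16 between KCs and hepatocytes (standard error 0.28, adjusted p = 3.27e-05). The step from HSCs to KCs was lost with KO-labelled libraries alone (0.57, adjusted p = 0.195) and that from KCs to hepatocytes with WT libraries alone (1.10, adjusted p = 0.0671). Per kb of exon, Bmp2 made up 93.5% of the summed level of 13 BMP ligand genes in ECs and 61.2% in KCs. Bmp2 lies at chr2:133552159-133562885 on GRCm38.

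The level of Bmp2 in HSCs and in KCs was set beside the EC markers of the same libraries. In HSCs, Bmp2 stood at 6.81% to 18.7% of its EC level, while the 10 EC markers stood at 1.31% to 3.46% of theirs, and Bmp2 was above the markers in 4 of 4 libraries. In KCs it stood at 1.68% to 4.82%, and the EC markers at 3.59% to 6.17%, with Bmp2 below them in every KC library. In hepatocytes both shares were at most 0.626%. In bulk samples, fewer cells of a type and less RNA per cell cannot be told apart.

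Bmp6, the ligand best known for iron sensing, had 44.0 and 37.4 CPM in EC WT and 42.9 and 47.6 CPM in EC KO. In the other 12 libraries it was between 0 and 4.94 CPM, so that ECs did not overlap with any other cell type. The difference on the log2 scale was 3.91 from KCs (standard error 0.61, edgeR adjusted p = 0.000404) and 3.75 from hepatocytes (standard error 0.62, adjusted p = 0.000238). Among the lower cell types KCs and hepatocytes did not pass the test (adjusted p = 0.872), and HSCs were lower than both (adjusted p = 0.0446 against KCs and 0.0248 against hepatocytes). These calls rest on few reads: the first passed in only 5 of 16 fits with a library left out (without KC KO 27, HSC KO 20, HSC WT 40, HEP KO 25 or HEP KO 41) and the second in 5 (without KC KO 27, KC KO 43, HSC KO 20, HSC WT 40 or HEP KO 41), with adjusted p up to 0.159 and 0.179. The first was also lost with WT or KO-labelled libraries alone (adjusted p = 0.0841 and 0.450), and the second with KO-labelled libraries alone, where its direction turned (0.36, adjusted p = 0.715). Per kb of exon, Bmp6 reached 2.97% of the summed ligand level of ECs, behind Bmp2. Bmp6 lies at chr13:38345107-38500302 and shares 224 bases of exon with Txndc5 on the opposite strand. The strand setting of the counting is not given in the sources used here.

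Gdf2 had the highest level per kb of exon among the 13 ligand genes. It had 2986 and 2368 CPM in HSC WT and 3152 and 3156 CPM in HSC KO. No other library had more than 45.1 CPM, and the lowest HSC library exceeded the highest other library 52.5-fold. Per kb of exon Gdf2 made up 82.4% of the summed ligand level of HSCs, and Bmp5 another 7.12%. Of the 4025 exon bases of Bmp5, 1878 are shared with Gm26903 on the opposite strand. Its share may therefore depend on the strand setting of the counting, which is not given. HSCs exceeded ECs by 7.10 on the log2 scale (standard error 0.67, edgeR adjusted p = 1.14e-05), KCs by 7.40 (standard error 0.68, adjusted p = 6.52e-06) and hepatocytes by 7.69 (standard error 0.69, adjusted p = 1.58e-06). ECs, KCs and hepatocytes did not pass the test against each other (adjusted p between 0.358 and 0.715). In these 3 cell types, Gdf2 had shares of the size of the HSC marker shares. In ECs it stood at 0.363% to 1.55% of its HSC level with HSC markers at 0.633% to 1.81%, in KCs at 0.148% to 0.907% with markers at 0.663% to 1.35%, and in hepatocytes at 0.113% to 0.384% with markers at 0.132% to 0.252%. Gdf2 lies at chr14:33941039-33947198.

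Bmp10 was also highest in HSCs, at a far lower level, with 41.2 and 52.5 CPM in HSC WT and 69.7 and 58.2 CPM in HSC KO. The other 12 libraries had between 0 and 2.1 CPM, of which 3 had no count. The difference on the log2 scale was 8.10 against ECs (standard error 1.05, edgeR adjusted p = 0.000136), 6.57 against KCs (standard error 0.93, adjusted p = 0.000155) and 6.04 against hepatocytes (standard error 0.93, adjusted p = 0.000142). Per kb of exon, HSCs had 12.3 CPM of Bmp10 and 976 of Gdf2. The order of the 3 low cell types was not resolved (adjusted p between 0.151 and 0.692). Bmp10 lies at chr6:87428994-87437677.

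**Figure D2:**
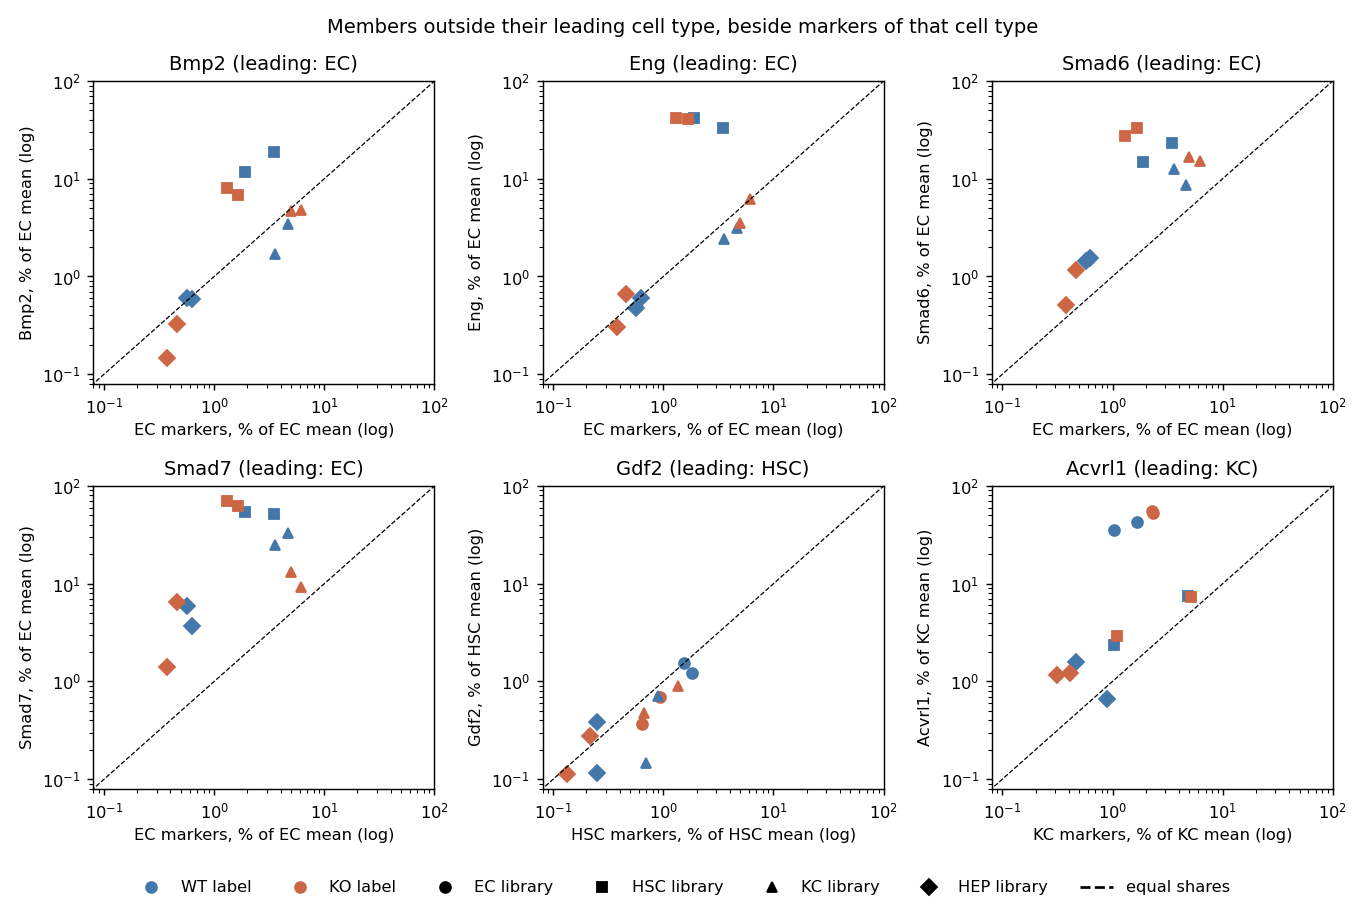
Level of 6 genes outside the cell type where they were highest, as a percentage of the mean there (vertical axis), against the summed level of 10 markers of that cell type as a percentage of their own mean (horizontal axis), both on log axes. Each point is 1 of 12 libraries and the dashed line marks equal shares. Gdf2 lies near or below the line, while Eng, Smad6, Smad7 and Bmp2 in HSCs and Acvrl1 in ECs lie well above it.

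Acvrl1, the type I receptor for Bmp9 and Bmp10, was highest in KCs and not in ECs. KCs had 226 and 246 CPM in WT and 232 and 184 CPM under the KO label. ECs had 95.0 and 78.1 CPM in WT and 122 and 117 CPM under the KO label, and HSCs had between 5.18 and 16.5 CPM. Hepatocytes had between 1.47 and 3.55 CPM, and the 4 cell types did not overlap. ECs were lower than KCs by -1.44 on the log2 scale (standard error 0.39, edgeR adjusted p = 0.0141). That call was lost without EC WT 38 (adjusted p = 0.0546) and with WT or KO-labelled libraries alone (adjusted p = 0.070 and 0.106), with the same direction each time. ECs exceeded HSCs by 2.94 (standard error 0.41, adjusted p = 0.000248), and HSCs and hepatocytes did not pass the test (adjusted p = 0.0565). Acvrl1 in ECs stood at 35.2% to 54.9% of its KC level, where the 10 KC markers stood at 1.03% to 2.31% of theirs. In HSCs it stood at 2.33% to 7.41%, beside KC markers at 1.04% to 5.13%. Acvrl1 (chr15:101128522-101145336) made up 96.5% of the summed level per kb of 4 type I receptor genes in KCs and 81.0% in ECs. It shares 127 bases with Gm16031 on the opposite strand.

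Eng, the co-receptor that presents Bmp9 and Bmp10 to Alk1, was the highest of the 10 genes. ECs had 6484 and 4440 CPM in WT and 7543 and 8702 CPM under the KO label. HSCs had 2233 and 2815 CPM in WT and 2848 and 2805 CPM under the KO label, and no HSC library reached the lowest EC library. KCs had 164 to 420 CPM and hepatocytes 20.7 to 45.1 CPM. ECs exceeded HSCs by 1.08 on the log2 scale (standard error 0.26, edgeR adjusted p = 0.00994). This call was lost by a small margin without EC WT 34 (adjusted p = 0.05004) or HSC WT 32 (adjusted p = 0.0507), and with WT or KO-labelled libraries alone (adjusted p = 0.171 and 0.0816). HSCs exceeded KCs by 3.35 (standard error 0.29, adjusted p = 3.87e-06), and KCs exceeded hepatocytes by 1.80 (standard error 0.27, adjusted p = 0.000119). In HSCs, Eng stood at 32.9% to 41.9% of its EC level, far above the 1.31% to 3.46% of the EC markers. In KCs its share was 2.42% to 6.18%, beside 3.59% to 6.17% for the EC markers. HSCs thus held transcripts of both Alk1 ligands and of their co-receptor, with little Acvrl1. Eng lies at chr2:32646595-32682669 and shares 61 bases with Fpgs on the opposite strand.

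Hfe2, the co-receptor for Bmp2 and Bmp6 in iron sensing, was a hepatocyte transcript of low level, with 14.7 and 18.5 CPM in HEP WT and 14.0 and 7.75 CPM in HEP KO. The other 12 libraries had between 0 and 4.82 CPM. The highest of them was EC WT 38, which was also the EC library with the largest sum of hepatocyte markers. Hepatocytes differed from KCs by 5.19 on the log2 scale (standard error 1.02, edgeR adjusted p = 0.00117). They also exceeded HSCs (adjusted p = 0.000206) and ECs (adjusted p = 0.000404), in which 2 libraries each had no count. ECs, KCs and HSCs did not pass the test against each other (adjusted p between 0.0794 and 0.831). Hfe2 lies at chr3:96525172-96529210. Hamp, the target of this branch, had 490 and 181 CPM in HEP WT and 287 and 319 CPM in HEP KO.

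Smad6 and Smad7, the feedback inhibitors, shared an order of cell types but not their steepness. Smad6 (chr9:63953076-64022059, reverse strand) had 76.7 and 59.0 CPM in EC WT and 51.5 and 76.7 CPM in EC KO. HSCs had 15.5 and 9.79 CPM in WT and 18 and 22.1 CPM under the KO label, KCs had 5.74 to 11.0 CPM and hepatocytes 0.337 to 1.02 CPM. ECs did not overlap with the other cell types, and the difference from HSCs was 1.81 on the log2 scale (standard error 0.29, edgeR adjusted p = 0.000692), which was lost with KO-labelled libraries alone (1.44, adjusted p = 0.0565). HSCs exceeded KCs by 0.81 (standard error 0.29, adjusted p = 0.0401), a call that was lost with RLE size factors (adjusted p = 0.0591) and without EC WT 34, EC KO 46, HSC WT 32, HSC KO 20, KC WT 39, KC KO 27 or KC KO 43 (adjusted p up to 0.156). It was also lost with WT or KO-labelled libraries alone (adjusted p = 0.249 and 0.136). KCs exceeded hepatocytes by 2.49 (standard error 0.33, adjusted p = 4.43e-05).

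Smad7 had 26.9 and 43.8 CPM in EC WT and 42.1 and 40.2 CPM in EC KO, against 19.9 and 20.9 CPM in HSC WT and 26.9 and 23.7 CPM in HSC KO. These groups met at 26.9 CPM, and ECs and HSCs did not pass the test (log2 difference 0.50, standard error 0.35, edgeR adjusted p = 0.329). HSCs exceeded KCs by 1.65 (standard error 0.36, adjusted p = 0.00316), and this was lost with WT libraries alone (log2 difference 0.80, adjusted p = 0.199). KCs exceeded hepatocytes by 0.99 (standard error 0.37, adjusted p = 0.0390), a call that was lost without KC KO 43 (adjusted p = 0.104) or HEP WT 29 (adjusted p = 0.0543), and with KO-labelled libraries alone (0.65, adjusted p = 0.405). In HSCs, both inhibitors stood well above the EC markers, Smad6 at 14.8% to 33.4% and Smad7 at 51.9% to 70.3% of the EC level. In KCs Smad6 was at 8.70% to 16.7% and Smad7 at 9.31% to 32.7%, above the markers in 4 of 4 libraries.

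Id1, a transcription inhibitor and early target of BMP Smads, varied more than 3-fold between the libraries of EC WT and of KC WT. It had 96.6 and 309 CPM in EC WT, 501 and 489 CPM in EC KO, 84.6 and 311 CPM in KC WT, and 54.2 and 27.1 CPM in KC KO. HSCs had 22.3 and 45.7 CPM in WT and 30.6 and 98.3 CPM under the KO label, and hepatocytes had 4.72 to 8.06 CPM. Over both labels ECs exceeded KCs by 1.53 on the log2 scale (standard error 0.49, edgeR adjusted p = 0.0324). The direction was not the same with WT libraries alone, where the difference was -0.29, and the call was lost without EC WT 38, EC KO 6, EC KO 46, KC WT 31 or KC KO 43 (adjusted p between 0.0732 and 0.162). KCs and HSCs did not pass the test (adjusted p = 0.131), and HSCs exceeded hepatocytes by 1.71 (standard error 0.50, adjusted p = 0.0120), a call that was lost with WT libraries alone (1.21, adjusted p = 0.183). Id1 lies at chr2:152736251-152737410.

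The rest of the pathway was read from a list of 54 genes that contains the 10. Levels are given here as CPM per kb of exon, so that genes can be set beside each other. Among type I receptors, Acvr1 (Alk2) was second by its highest group mean, with at most 7.77 in any group, against 55.3 for Acvrl1. Within HSCs and hepatocytes Acvr1 was the first, with 56.8% and 43.8% of the sum of 4 genes, followed by Bmpr1a. The type II receptors were low, with Acvr2a at most 13.3 and Bmpr2 at most 7.70. ECs had Bmpr2 as their first type II receptor, with 51.9% of the sum of 3 genes, whereas HSCs had Acvr2a, with 81.3%. Tgfbr3 (betaglycan) was the second co-receptor with at most 20.0, against 2006 for Eng. Of the signalling Smads, Smad5 reached 9.19 in HSCs and Smad1 8.03 in ECs. Among secreted and membrane antagonists, Fstl1 (at most 82.6) and Bambi, a decoy receptor (at most 79.1), were highest in HSCs, where the 13 antagonists summed to 172 against 26.4 in ECs. Among the targets Id3 reached 1620 in HSCs and Hamp 819 in hepatocytes, where it made up 70.5% of the sum of 7 targets.

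**Figure D3:**
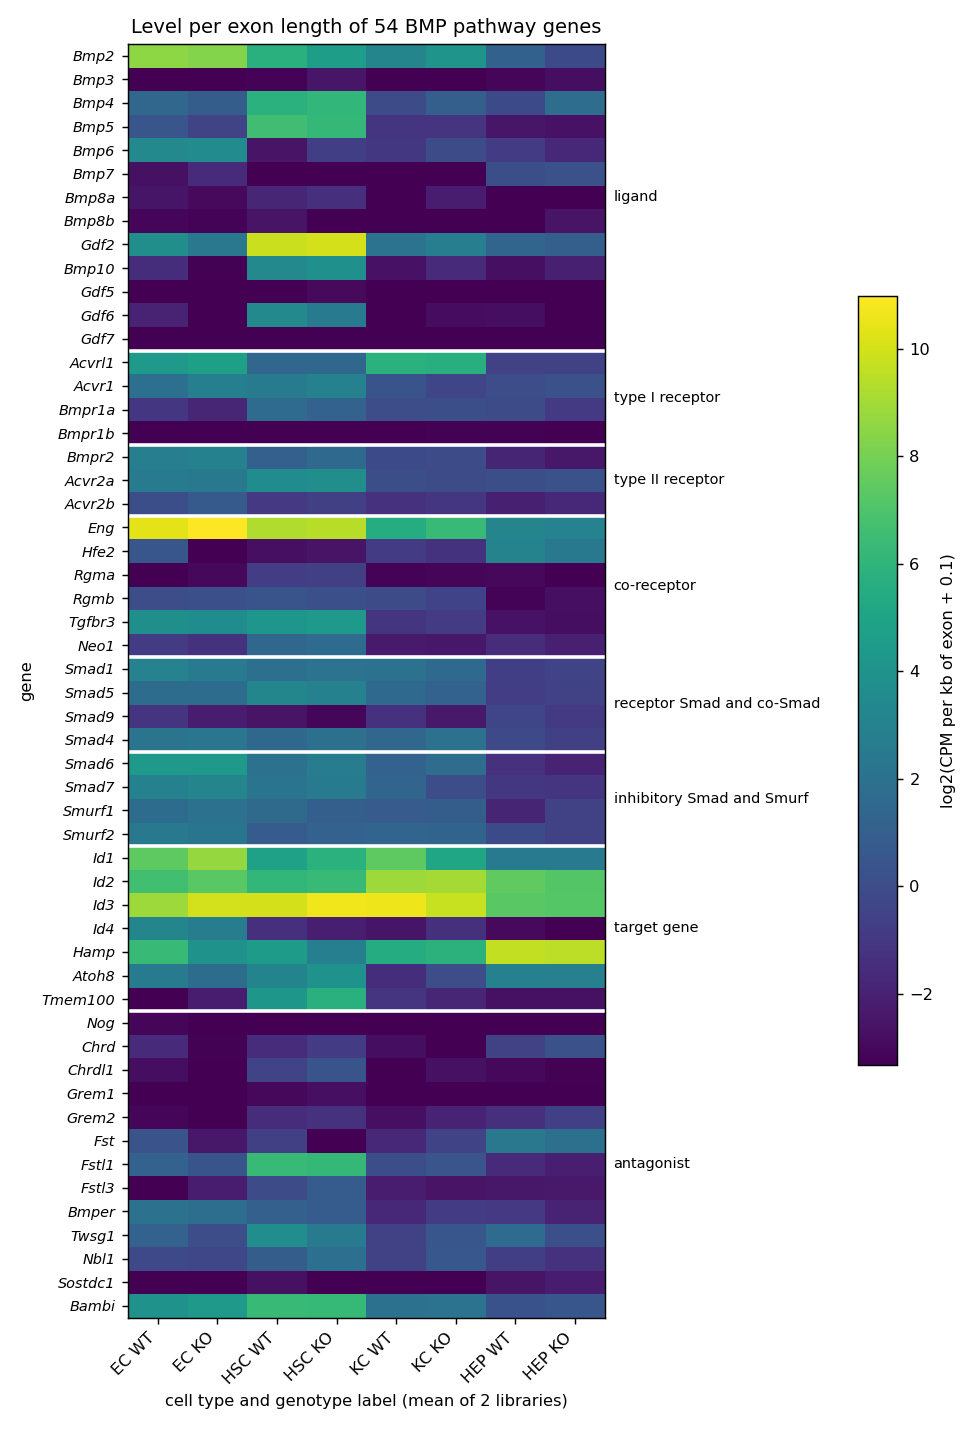
Level of the 54 BMP pathway genes by role in the 8 groups, as log2 of CPM per kb of exon plus 0.1, each cell the mean of 2 libraries. Bmp2 and Eng stand out in ECs, Gdf2 with Bmp4, Bmp5, Fstl1 and Bambi in HSCs, Acvrl1 in KCs, and Hamp and Hfe2 in hepatocytes.

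The genes whose levels followed each member most closely over the 16 libraries are given as a description, by Pearson's r of log2 CPM among 17204 genes. Such an r mostly reflects which cell type holds a gene, since 4 libraries share each cell type. Bmp2 was most like Jak1 (r = 0.982), followed by Taok2 and Dchs1, and Bmp6 was most like Col4a3bp (r = 0.921), Mtch1 and Insl3. Gdf2 was most like Dcn (r = 0.989), Colec11 and Sod3, of which Dcn and Colec11 are on the list of HSC markers. Bmp10 was most like Pdgfra (r = 0.964), Foxs1 and Igfbp3. Acvrl1 was most like Ptgs1 (r = 0.983), Hbegf and Slc7a7, and Eng was most like Ehd3 (r = 0.990), C1qtnf1 and Clec14a. Hfe2 was most like 9030622O22Rik (r = 0.973), Tmem238 and Serpina1d, and Smad6 was most like Strn3 (r = 0.975), Ddah2 and Arhgap31. Smad7 and Id1 had the lowest likeness among the EC-leading genes other than Bmp6, with Stx1a (r = 0.938), Ccdc186 and Gm43793 for Smad7 and Gm43817 (r = 0.938), Gm37420 and Mxd3 for Id1.

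The second question was whether these genes differed between the KO and WT labels within each cell type, which asks for effects in ECs, where Cre is active, and in the neighbouring cells. By edgeR's quasi-likelihood test none of the 10 genes passed an adjusted p under 0.05 in any of the 4 cell types. In ECs 8 of the 10 passed the filter on low counts and 2.08% of all genes passed, while in HSCs (9 tested), KCs (10 tested) and hepatocytes (9 tested) 0.0% of all genes passed. At an unadjusted p under 0.05 there were 2 members in ECs (Gdf2 lower, Id1 higher), where 15.0% of all genes fell under it. There was 1 in HSCs (Bmp2 lower, 8.75% of all genes), 2 in KCs (Id1 and Smad7 lower, 5.09%) and 1 in hepatocytes (Bmp2 lower, 7.11%). DESeq2 called 3 members in ECs (Gdf2, Hfe2 and Id1), where it called 4.16% of all genes, and 1 in KCs (Id1, 0.332%). It called none in HSCs, where 1.66% of all genes passed, and none in hepatocytes (0.156%). Without a filter on low counts edgeR called 3 members in ECs (Gdf2, Hfe2 and Id1), where 5.26% of all genes passed, 1 in HSCs (Bmp2, 2.7%), 1 in KCs (Id1, 0.704%) and none in hepatocytes (1.14%). The median log2 difference of the members tested was 0.19 in ECs, 0.29 in HSCs, 0.53 in KCs and -0.34 in hepatocytes, against -0.01, 0.02, -0.02 and -0.02 over all genes.

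**Figure D4:**
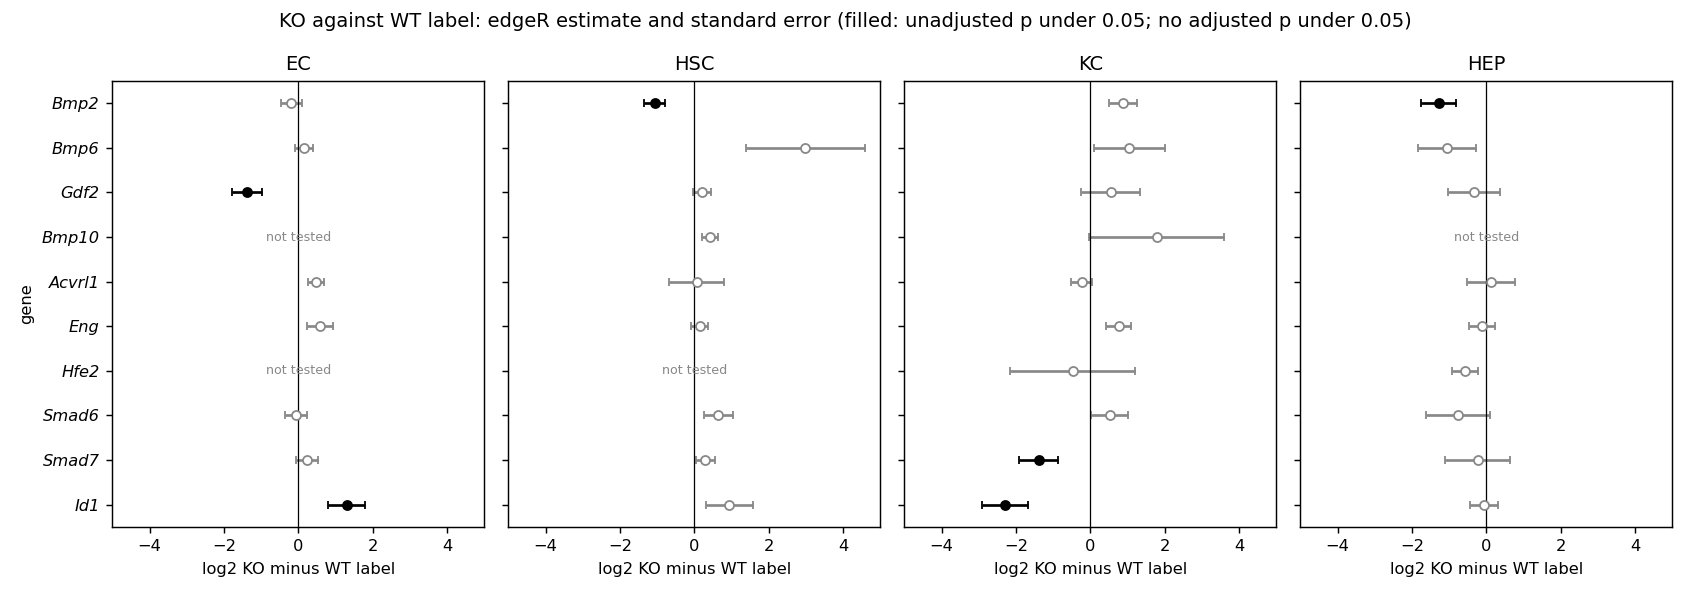
Difference between the KO and WT labels for the 10 genes in each cell type, as edgeR's log2 estimate with its standard error (2 libraries per label). Filled points have an unadjusted p under 0.05, and no point has an adjusted p under 0.05. Id1 lies to the right of 0 in ECs and to the left in KCs.

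The endothelial ligands were close under both labels in ECs. Bmp2 differed by -0.19 on the log2 scale (standard error 0.29, edgeR adjusted p = 0.822) and Bmp6 by 0.16 (standard error 0.24, adjusted p = 0.826). The labels overlapped for both. Outside ECs the Bmp2 difference was negative in HSCs and hepatocytes and positive in KCs, and it did not pass the test in any of them. Bmp6 went the other way in HSCs on few reads (at most 41 counts). It had 0 and 0.512 CPM in HSC WT and 1.24 and 2.84 CPM in HSC KO. In HSCs Bmp2 was 188 ± 60.8 CPM in WT and 91.5 ± 10.6 CPM under the KO label (SD, n = 2 per label), a log2 difference of -1.07 (standard error 0.29, adjusted p = 0.413). The 10 EC markers moved the same way in these libraries, from sums of 429 to 779 CPM in WT to 294 to 374 CPM under the KO label. In KCs Bmp2 differed by 0.87 (standard error 0.37, adjusted p = 0.933), where the EC markers went from 808 to 1048 CPM in WT to 1116 to 1389 CPM. In hepatocytes the difference was -1.28 (standard error 0.48, adjusted p = 0.700), with EC markers at 128 to 141 CPM in WT and 84.7 to 104 CPM. The part of EC RNA in these differences was not tested.

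The ligands of HSCs did not pass the test either. Gdf2 was 2677 ± 437 CPM in HSC WT and 3154 ± 2.99 CPM in HSC KO, a log2 difference of 0.22 (standard error 0.24, edgeR adjusted p = 0.869). Bmp10 was 46.8 ± 7.98 CPM and 63.9 ± 8.15 CPM, a log2 difference of 0.43 (standard error 0.22, adjusted p = 0.673), and both KO-labelled libraries were above both WT libraries. The share of all genes whose labels separate in this way, here and for the genes below, was not counted. In ECs, where Gdf2 was near the level of HSC markers, it had 45.1 and 35.5 CPM in WT and 10.6 and 20.3 CPM under the KO label (log2 difference -1.37, standard error 0.40, adjusted p = 0.189, DESeq2 adjusted p = 0.0349). The summed HSC markers of the same libraries were also lower, going from 1307 to 1546 CPM in WT to 541 to 804 CPM under the KO label. Their part in the difference was not tested. Bmp10 was below the filter of edgeR in ECs (DESeq2 adjusted p = 0.243), with 0.349 and 2.1 CPM in WT and 0 and 0.0695 CPM under the KO label.

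No receptor or co-receptor passed the test between labels. In ECs Acvrl1 was 86.6 ± 12.0 CPM in WT and 120 ± 3.15 CPM under the KO label (log2 difference 0.47, standard error 0.22, edgeR adjusted p = 0.390). In KCs, its leading cell type, the labels overlapped (log2 difference -0.24, standard error 0.28, adjusted p = 0.961). Eng was 5462 ± 1445 CPM and 8122 ± 820 CPM in ECs (log2 difference 0.57, standard error 0.35, adjusted p = 0.506) and differed by 0.15 in HSCs (standard error 0.23, adjusted p = 0.911). For Acvrl1 and Eng in ECs the 2 KO-labelled libraries were above both WT libraries, and so was the sum of the 10 EC markers, with 17958 and 21690 CPM in WT and 25061 and 25304 CPM under the KO label. Hfe2 was 16.6 ± 2.70 CPM in HEP WT and 10.9 ± 4.41 CPM in HEP KO (log2 difference -0.57, standard error 0.34, adjusted p = 0.738). In ECs Hfe2 had 9 and 62 counts in WT and none in either KO-labelled library, at least 13-fold lower on the group mean against a floor of 3 counts per library. EC WT 38 held 62 of those counts. It was below the filter of edgeR and had an adjusted p of 0.00469 by DESeq2. Hepatocyte markers in the same libraries summed to 11317 and 23308 CPM in WT and to 2683 and 1879 CPM under the KO label, and their part was not tested.

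The labels overlapped for Smad6 in ECs (log2 difference -0.07, standard error 0.30, edgeR adjusted p = 0.947), and for Smad7 (0.23, standard error 0.29, adjusted p = 0.783). The sign of either changed when single EC libraries were left out, to between -0.45 and 0.24 for Smad6 and between -0.049 and 0.59 for Smad7. In KCs Smad7 was 11.0 ± 2.12 CPM in WT and 4.32 ± 1.07 CPM under the KO label, a log2 difference of -1.39 (standard error 0.52, adjusted p = 0.933, unadjusted p = 0.0352).

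Id1 had values of opposite direction in ECs and KCs. In ECs it was 203 ± 150 CPM in WT and 495 ± 8.49 CPM under the KO label (SD, n = 2), with both KO-labelled libraries above both WT libraries. The log2 difference was 1.30 (standard error 0.50, edgeR adjusted p = 0.302, DESeq2 adjusted p = 0.0358). It was 2.33 without EC WT 38 (adjusted p = 0.00745) and 0.72 without EC WT 34, so that its size depends on which WT library is kept. The WT library with the higher Id1 was numbered 38 in ECs, 39 in KCs and 40 in HSCs, and the fits treat these libraries as independent. In KCs the order was the opposite, with 198 ± 160 CPM in WT and 40.6 ± 19.2 CPM under the KO label, a log2 difference of -2.29 (standard error 0.62, edgeR adjusted p = 0.933, DESeq2 adjusted p = 0.00807). Leaving out each KC library in turn kept this between -2.89 and -1.23. In the same EC libraries the 10 hepatocyte markers stood at 11.5% and 23.6% of their hepatocyte level in WT and at 2.72% and 1.90% under the KO label. The EC markers stood at 79.8% to 96.4% of their EC mean in WT and at 111% to 112% under the KO label, and lymphocyte markers summed to 75.1 to 159 CPM and to 39.7 to 41.8 CPM. In KCs the hepatocyte markers summed to 5658 to 8255 CPM in WT and 9313 to 10916 CPM under the KO label, and the EC markers to 808 to 1048 CPM and 1116 to 1389 CPM. The part of these cells in the Id1 values was not tested. In HSCs it was 0.94 (standard error 0.64, adjusted p = 0.778), and -0.24 without HSC KO 20. In hepatocytes it was -0.08 (standard error 0.38, adjusted p = 0.972), and 0.22 without HEP KO 41.

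Over the list of 54 pathway genes edgeR called none in any cell type. Of those tested (36 in ECs, 43 in HSCs, 36 in KCs and 35 in hepatocytes), 9, 3, 3 and 3 had an unadjusted p under 0.05. Over all genes tested the shares under it were 15.0%, 8.75%, 5.09% and 7.11%. In ECs 4 of the 9 were higher under the KO label and 5 were lower. The higher ones were Id1, Id2 (log2 difference 0.66, standard error 0.22), Id3 (1.11, standard error 0.27) and the type I receptor Acvr1 (0.99, standard error 0.30), none of which passed the adjustment. Id2 and Id3 encode the same kind of transcription inhibitor as Id1. Id3 had 718 and 979 CPM in EC WT and 1891 and 1764 CPM in EC KO (edgeR adjusted p = 0.121, DESeq2 adjusted p = 0.000449). It passed edgeR's test without EC WT 38 (adjusted p = 0.0445).

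The lower ones in ECs were Gdf2, Hamp, and the secreted antagonists Chrd, Fst and Twsg1. Hamp had 16.2 and 47.9 CPM in EC WT and 5.43 and 7.30 CPM in EC KO (log2 difference -2.31, standard error 0.55, edgeR adjusted p = 0.117, DESeq2 adjusted p = 0.000740), and it passed edgeR's test without EC WT 34 (adjusted p = 0.00920). As a share of its hepatocyte level it stood at 1.70% to 15.0% in ECs, where the 10 hepatocyte markers stood at 1.90% to 23.6%. Fst had 5.02 and 5.44 CPM in EC WT and 0.139 and 0.695 CPM in EC KO (log2 difference -3.59, standard error 0.97, edgeR adjusted p = 0.156, DESeq2 adjusted p = 0.00909). Fst was itself highest in hepatocytes, and the part of hepatocyte RNA was not tested. Chrd had 1.47 and 1.40 CPM in EC WT and 1 count in all in EC KO. Twsg1 differed by -1.21 (standard error 0.47, edgeR adjusted p = 0.304). On average Chrd was highest in hepatocytes and Twsg1 in HSCs. In ECs Chrd stood at 0% to 28.4% of its hepatocyte level. Twsg1 stood at 8.40% to 27.3% of its HSC level, where the HSC markers stood at 0.633% to 1.81%. The part of RNA from these cells was not tested. Chrd shares 239 bases of exon with Thpo on the opposite strand.

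In HSCs, Fst had 25 and 55 counts in WT and none under the KO label, at least 12.3-fold lower against a floor of 3 counts per library (edgeR adjusted p = 0.352, DESeq2 adjusted p = 0.00698). Hepatocyte markers also differed in HSCs, with sums of 3064 and 7393 CPM in WT and between 521 and 1460 CPM under the KO label, and their part was not tested. The target gene Atoh8 differed by 0.88 in HSCs (standard error 0.31, edgeR adjusted p = 0.515). In KCs the third gene beside Id1 and Smad7 was Id3, with 3198 and 2312 CPM in WT and 1745 and 1397 CPM under the KO label (log2 difference -0.89, standard error 0.34, adjusted p = 0.933). In hepatocytes Smurf1, a ubiquitin ligase for receptor Smads, differed by 1.76 (standard error 0.55, adjusted p = 0.700) and Twsg1 by -1.50 (standard error 0.58, adjusted p = 0.700). The median log2 difference over the pathway genes tested was -0.19 in ECs, 0.21 in HSCs, 0.09 in KCs and -0.23 in hepatocytes. Over all genes it was -0.01, 0.02, -0.02 and -0.02.

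**Figure D5:**
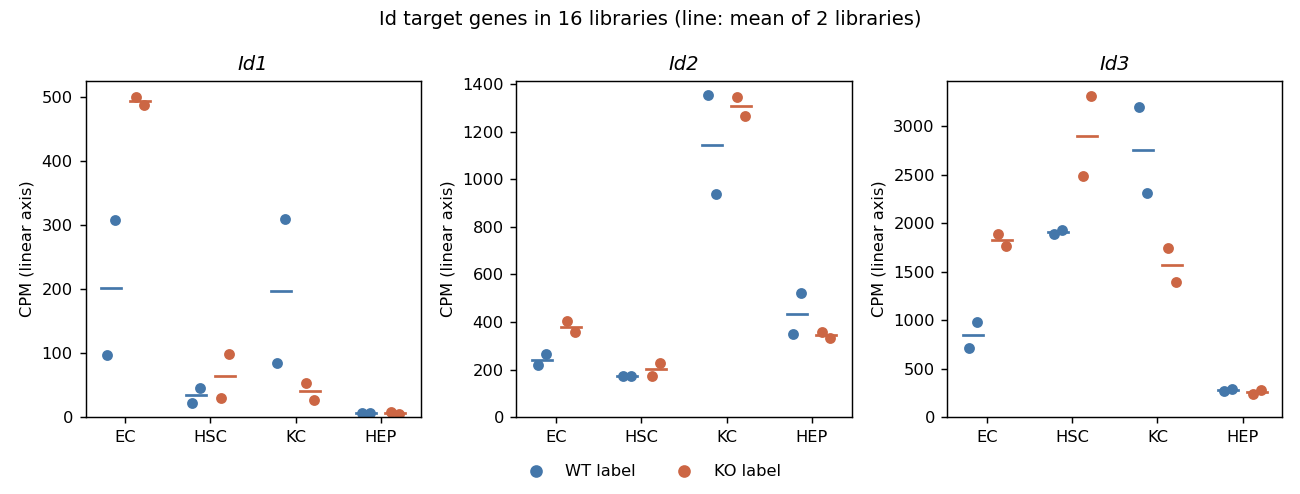
Level of the target genes Id1, Id2 and Id3 in each library in CPM on a linear axis, by cell type and label, with lines at the mean of 2 libraries. Id1 and Id3 are higher under the KO label in ECs and lower in KCs. For Id2 the KO-labelled ECs are above the WT ECs, and the labels overlap in KCs.

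Whether a difference between labels was itself different between cell types was tested as an interaction over the 16 libraries. None of the 10 genes passed edgeR's adjusted threshold in any of the 6 pairs of cell types. The share of all genes that passed was 0.0349% for ECs against HSCs, 2.07% for ECs against KCs, 0.0697% for ECs against hepatocytes, 0.593% for HSCs against KCs, 0.0755% for HSCs against hepatocytes and 0.0116% for KCs against hepatocytes. At an unadjusted p under 0.05 there were 3 members for ECs against HSCs (4.85% of all genes), 4 for ECs against KCs (14.0%) and 2 for ECs against hepatocytes (9.12%). There were 3 for HSCs against KCs (11.7%), 1 for HSCs against hepatocytes (7.16%) and 2 for KCs against hepatocytes (8.18%). DESeq2 called 3 members for ECs against KCs (3.65% of all genes), 2 for HSCs against KCs (2.61%), 1 for HSCs against hepatocytes (1.23%) and 1 for KCs against hepatocytes (0.468%). It called none for ECs against HSCs (0.315%) or ECs against hepatocytes (2.03%). Id1 had an EC effect that exceeded the KC effect by 3.56 on the log2 scale (standard error 0.99, edgeR adjusted p = 0.103, DESeq2 adjusted p = 0.0104). The adjusted p of edgeR was between 0.0480 and 0.314 over the fits with a library left out. Bmp2 had a KC effect above that of HSCs (HSC minus KC -1.97, standard error 0.52, adjusted p = 0.119).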

How the data were processed

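RNA of 4 sorted or centrifuged liver cell types was measured in 16 libraries. The authors deposited raw counts of reads per Ensembl gene, 1 table per library, without normalization. Per the labels, reads were processed with Trimmomatic 0.32, HISAT2 2.1.0 and HTSeq 0.9.1 on GRCm38; strand setting and annotation release are not given in the sources used here, and the labels name both Smart-seq2 and a TruSeq stranded kit. The 5 summary lines per table (42.5% to 57.5% of reads) were left out. Positions and exon lengths came from GENCODE mouse release 21, which holds 98.9% of the identifiers.

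Genes were tested with edgeR 4.0.16 in R 4.3.3 (filterByExpr, TMM, quasi-likelihood test, Benjamini-Hochberg adjusted p under 0.05 over all genes): KO against WT label within the 4 libraries of a cell type, and cell type pairs and interactions over 16 libraries as 8 group means. The fits treat libraries as independent, although 1 liver may have given several of them, and p-values measure the spread between samples. Replicates of every group differed by more than sampling noise. The edgeR tests within cell types and for ECs against HSCs were also run on simulated counts of independent libraries, with no outcome given here. Interactions, the other pairs and DESeq2 were not simulated. Other settings tried were RLE size factors, DESeq2 1.42.0, tables without a filter, at least 10 counts per library, 1 fit over 16 libraries, WT or KO-labelled libraries alone, 857 hepatocyte-enriched genes (at least 10 CPM in WT hepatocytes and 8 times WT KCs) left out, and each library left out in turn.

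The members, the list of 54 genes and the marker lists were chosen with earlier results of these data known. Named are all members, pathway genes with an unadjusted p under 0.05 between labels or past the threshold in an interaction, the 2 highest per role, and the 3 genes most like each member (log2 CPM, prior count 2). Markers of cholangiocytes, lymphocytes, neutrophils, erythroid cells and smooth muscle or portal fibroblasts were summed over 5 genes each. Plots used Python 3.11.15 and matplotlib 3.10.9.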

Additional observations from a re-analysis of the deposited data

Results flagged for a closer look

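The difference between the KO and WT labels in Id3, the target gene beside Id1, passed edgeR's interaction test between ECs and KCs. Of the list of 54 genes, 46 were tested in this pair and 1 was called, a share near the 2.07% of all genes that passed. Id3 was higher under the KO label in ECs and lower in KCs, and the EC effect exceeded the KC effect by 1.98 on the log2 scale (standard error 0.44, edgeR adjusted p = 0.0403 for the interaction, DESeq2 adjusted p = 0.000379). In both cell types the 2 KO-labelled libraries lay on 1 side of the 2 WT libraries. The share of all genes that separate in this way was not counted. The call passed with RLE size factors (adjusted p = 0.0458) and was lost without hepatocyte-enriched genes (1.95, adjusted p = 0.129). With 1 of the 16 libraries left out in turn it passed in 6 fits and was lost in 10, namely without any 1 of the EC libraries (34, 38, 6, 46), of the hepatocyte libraries (29, 33, 25, 41), KC WT 31 or KC KO 43, with adjusted p up to 0.149. The difference kept its direction in these fits.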

How the results depend on the processing

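No paired analysis was possible because the groups compared share no number in their labels. Numbers that lie close together across cell types may mark 1 liver, which the labels do not say and the fits did not use. With no filter on low counts the members called between labels rose from 0 to 3 in ECs (Gdf2, Hfe2, Id1), 1 in HSCs (Bmp2) and 1 in KCs (Id1). The genes of the 54 called rose to 6, 4 and 1, with 2 in hepatocytes. Calls rose over all genes as well, from 2.08% to 5.26% in ECs. From 0.0% they rose to 2.7% in HSCs, 0.704% in KCs and 1.14% in hepatocytes. DESeq2 called 3 members in ECs and 1 in KCs, and 6, 1 and 1 of the 54 in ECs, HSCs and KCs. Its share over all genes was 4.16% in ECs, 1.66% in HSCs, 0.332% in KCs and 0.156% in hepatocytes. Without 1 library in turn, the members called in ECs ranged from 0 to 1, the genes of the 54 from 0 to 2 in ECs and from 0 to 1 in hepatocytes (Bmp4, without HEP KO 25). For interactions, DESeq2 called 3 members between ECs and KCs (Bmp10, Hfe2, Id1), 2 between HSCs and KCs (Bmp2, Id1), 1 between HSCs and hepatocytes (Bmp6) and 1 between KCs and hepatocytes (Bmp2), and leaving out a library gave 0 to 1 between ECs and KCs (Id1, without HSC KO 8 or HSC KO 20). The share of all genes with a DESeq2 interaction call was 3.65% for ECs against KCs and 2.61% for HSCs against KCs. It was 1.23% for HSCs against hepatocytes and 0.468% for KCs against hepatocytes. Between cell types, WT libraries alone called 4 members for ECs against KCs, and KO-labelled libraries alone 5 for HSCs against KCs. The share of all genes called with WT or KO-labelled libraries alone is not given here. The cause was not tested.

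Signs changed for Id1 in ECs minus KCs with WT libraries alone (-0.29) and for Bmp6 in HSCs minus hepatocytes with KO-labelled libraries alone (0.36). With each library left out, the log2 difference between labels spanned 0 for Bmp2 in ECs (-0.45 to 0.15), Smad6 in ECs (-0.45 to 0.24), Smad7 in ECs (-0.049 to 0.59), Id1 in HSCs (-0.24 to 1.58) and Id1 in hepatocytes (-0.43 to 0.22). With 2 libraries per label, genes of a few CPM such as Bmp10 and Hfe2 outside their leading cell type cannot be ordered at this depth.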

Other observations

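Markers of cells that were not sorted were low beside those of the 4 cell types. Summed over 5 genes, cholangiocyte markers were between 41.9 and 265 CPM, lymphocyte markers between 0 and 159 CPM, neutrophil markers between 4.98 and 169 CPM outside hepatocytes, and erythroid markers between 8.92 and 646 CPM. Smooth muscle and portal fibroblast markers were between 132 and 143 CPM in HSC WT and between 206 and 409 CPM in HSC KO.

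Among ligands outside the 10 genes, HSCs also held Bmp5, with 383 and 380 CPM in WT and 417 and 178 CPM under the KO label, and Bmp4, with 130 and 119 CPM in WT and 201 and 122 CPM under the KO label. Gdf6 was between 11.4 and 44.3 CPM in HSCs and at most 1.12 CPM in the other 12 libraries. Tmem100, a known endothelial Alk1 target, had no count in EC WT and at most 0.348 CPM in EC KO, but 45.2 and 22.2 CPM in HSC WT and 48.6 and 144 CPM in HSC KO. Id4 was highest in ECs, with 35.1 and 33.3 CPM in EC WT, 25.9 and 24.4 CPM in EC KO and at most 1.65 CPM elsewhere. Bmp5, Bmp4, Gdf6, Tmem100 and Id4 were named here after their values had been seen.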
